A study of Mus musculus with 9 samples.

Results

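Cytotoxic lymphocytes, the CD8 T cells and natural killer (NK) cells that kill other cells, were followed in mouse liver through 10 genes: Cd8a, Cd8b1, Cd4, Cd3e, Cd3g, Gzma, Gzmb, Gzmk, Prf1 and Nkg7. The genes were taken by name, and every probe on the array that carried one of these names, or an older or newer symbol of the same gene, was used. This gave 16 probes for the 10 genes, out of 41174 gene probes and 27666 gene names. The 9 single-colour arrays came from livers of male C57BL/6 mice aged 3 months, with 3 arrays for each of 3 groups. One group was untreated wild type liver, one received an adeno-associated virus carrying green fluorescent protein (AAV-GFP), and one received the same kind of virus carrying hGRβ (AAV-hGRβ), a human splice form of the glucocorticoid receptor called β. AAV-GFP is the control for carrying a virus and a foreign protein, and untreated liver is the baseline for both. The labels give no vector dose, promoter or time after injection, and the delivered human and jellyfish genes were not analysed here.

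Conventional T cells carry the T cell receptor with the CD3 chains, and CD4 or CD8 marks the main classes. CD8 is a dimer of CD8α and CD8β on most killer T cells and binds MHC class I on the target cell, while CD4 binds MHC class II on the presenting cell of a helper T cell. Activated CD8 T cells and NK cells store perforin and granzymes in granules and release them onto a target, where perforin opens the membrane and granzymes enter and trigger death. The liver normally holds many NK cells and resident T cells in its sinusoids. In whole tissue, more cells of a type and more RNA per cell cannot be told apart.

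The probes behind the main contrasts are shown first, since several of these genes have more than 1 probe and the probes did not all behave alike. Positions are on build mm7 as the array files give them, all probes are 60 bases long, and exon boundaries were not used here. The first 30 bases are printed for some probes and the whole probe for the others. The brightest Cd8a probe lies at chr6:71395267-71395326 on the plus strand, a second Cd8a probe at chr6:71391822-71391881 on the plus strand, and a Cd8b1 probe at chr6:71355005-71355063 on the plus strand, beside Cd8a. The other probe named Cd8b1 lies at chr5:114364254-114364313 on the minus strand, away from the CD8 genes. The Cd4 probe lies at chr6:124894079-124894138 and the Gzma probe at chr13:110251676-110251735, both on the minus strand.
Cd8a, brightest probe, first 30 bases: ttaggtatgtgtctttagtatagcatgctt
Cd8a, second probe: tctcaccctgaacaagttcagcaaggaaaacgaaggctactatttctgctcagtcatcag
Cd8b1, chromosome 6 probe, first 30 bases: ggaccctggagaagactgcaaatcctcaca
Cd8b1, chromosome 5 probe, first 30 bases: gccatgatccagggaatgaaaagaaatttg
Cd4: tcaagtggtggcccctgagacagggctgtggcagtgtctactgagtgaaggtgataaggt
Gzma: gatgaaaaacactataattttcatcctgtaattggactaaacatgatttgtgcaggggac

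All levels below are log2 of the scanner's processed Cy3 signal minus the 75th percentile of the same array. A level of 0 lies at that percentile, 1 unit is a doubling of signal, and levels of different probes are not compared. A probe was well above background or not on each array by the scanner's own flag. The share of gene spots with that flag ran from 54.0% (untreated 3) to 82.0% (AAV-hGRβ 1), and correlations within a group ran from 0.973 to 0.988. The arrays were scanned on 2 days, with untreated 2, AAV-GFP 3 and AAV-hGRβ 1 on the second. Arrays with the same scan time were taken to share a slide. These were AAV-GFP 1 and 2, AAV-hGRβ 2 and 3, untreated 3 and 4, and AAV-GFP 3 with AAV-hGRβ 1. Differences within each day are given beside the main ones. On the first day each group had its own slide, so group and slide cannot be told apart there. On the second day each group had 1 array. Nothing in the labels says that replicates are separate animals, so p-values measure the spread between these samples, which may be technical. The tissue label was checked on hepatocyte genes, and albumin (Alb) stood at means of 10.1, 10.4 and 10.2 in untreated, AAV-GFP and AAV-hGRβ liver.

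In the central contrast, AAV-hGRβ against AAV-GFP, which sets the receptor against the control virus, Cd8a, the granzymes Gzma and Gzmb, and the granule membrane protein gene Nkg7 were higher with AAV-hGRβ, Gzma by 3.73 on the log2 scale and Gzmb by 2.34. Perforin (Prf1), Gzmk and Cd3e had group ranges that overlapped. Cd4 was higher by 0.68 without passing the test. Of the 9 member genes tested (limma across 16792 genes, Benjamini-Hochberg threshold 0.05), 4 were called higher and 0 lower. Of all genes, 0.911% were called, 0.834% higher and 0.0774% lower, and the 153 genes behind that share ranged from 41 to 162 when 1 array was left out. Cd8a and Prf1 were kept for the test only because all 3 AAV-hGRβ arrays were well above background, so these counts describe the members and support nothing further. The median difference of the 9 was 1.33, beside 0.027 over all genes tested, and 5 of the 9 had AAV-hGRβ arrays wholly above the AAV-GFP arrays, beside 9.54% of all genes.

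The number of members called was sensitive to single arrays. It was 1 without AAV-GFP 1 or without AAV-hGRβ 1, and 2 without AAV-GFP 2, AAV-GFP 3, AAV-hGRβ 3, untreated 3 or untreated 4. It stayed at 4 without untreated 2 or AAV-hGRβ 2. It was 4 with scan day as a block and 2, Cd8a and Gzma, with slide as a random block.

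**Figure D1:**
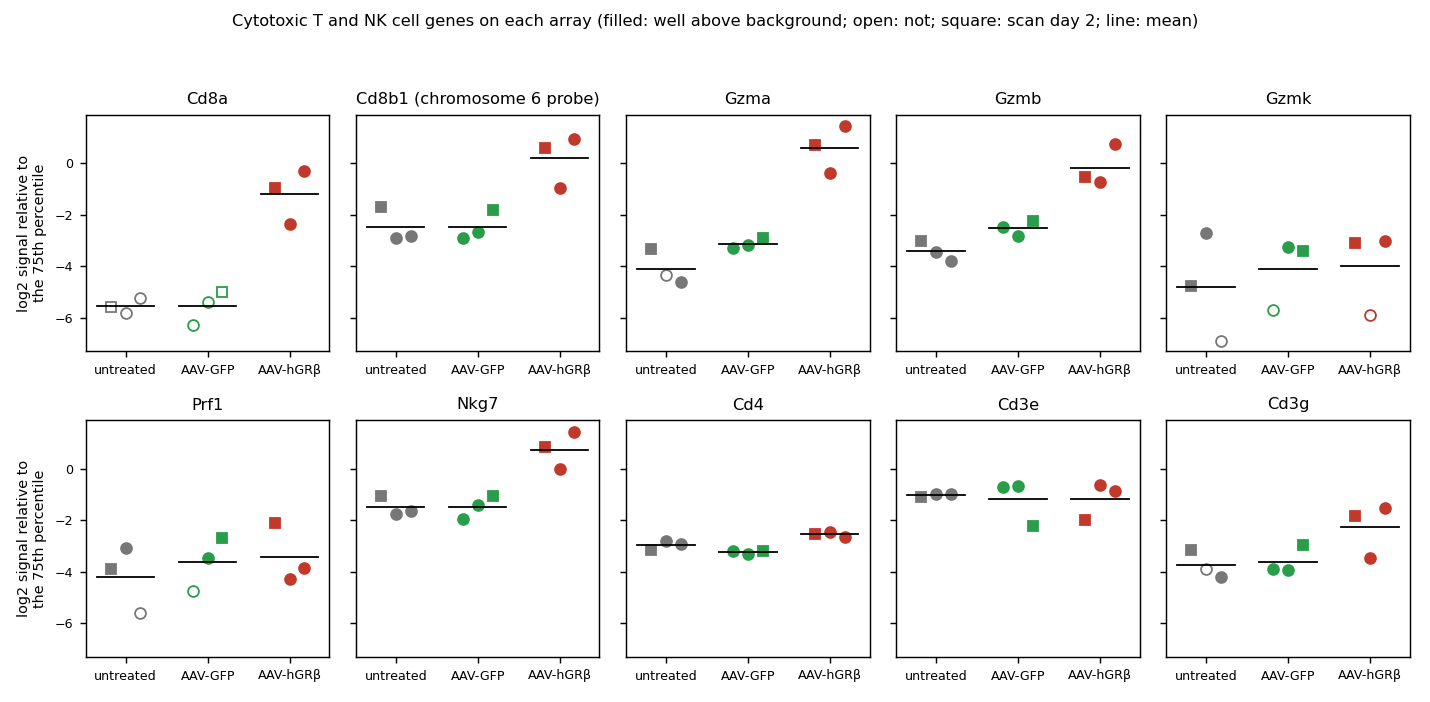
Level of each gene on each of the 9 arrays (y axis, log2 signal relative to the array's 75th percentile; x axis, group), with filled symbols for arrays where the probe was well above background, squares for the second scan day and lines for group means. The brightest Cd8a probe is open, not well above background, on all untreated and AAV-GFP arrays and filled on the 3 AAV-hGRβ arrays, while the Cd3e points of all groups overlap.

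Cd8a, the α chain of CD8, was measured well above background on all 3 AAV-hGRβ arrays. Its brightest probe read -6.27, -5.39 and -5.01 on AAV-GFP arrays 1, 2 and 3, and -0.96, -2.34 and -0.29 on AAV-hGRβ arrays 1, 2 and 3. The groups did not overlap, and the flag for signal well above background was absent from all 3 AAV-GFP arrays and present on all 3 AAV-hGRβ arrays. The mean with AAV-hGRβ, -1.20 ± 1.05 (SD, n = 3), was at least 12.6-fold above AAV-GFP under the floor used here. The AAV-GFP side was set on each array at the higher of the lowest signal well above background and the probe's own signal. That floor is no detection limit, since Prf1 on AAV-GFP 1 read -4.73 without the flag, above the floor of -4.76. This bound and those below hold only for this floor and this background correction. The Cd8a call (limma adjusted p = 0.00848) sets the AAV-hGRβ arrays against values that only bound the level. The probe entered the fit through the AAV-hGRβ arrays alone. The measured difference was 4.36 (SE 0.51), 4.51 within the first scan day and 4.05 within the second. Its size depended on the background correction, at 1.05 with normexp and quantile normalization (adjusted p = 0.0407).

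The other Cd8a probes went the same way with smaller bounds. The probe with 10 spots read -6.01, -5.92 and -4.82 with AAV-GFP and -2.17, -3.39 and -1.71 with AAV-hGRβ, at least 5.43-fold higher (limma over all probes, adjusted p = 0.0281). The remaining probe, printed whole above, read -6.09, -7.24 and -4.88 with AAV-GFP and -3.06, -4.66 and -2.47 with AAV-hGRβ. That was at least 2.76-fold higher and did not pass (adjusted p = 0.273), although its groups did not overlap. Of the 13 member probes tested singly, 5 were called higher, beside 0.606% of all probes. Among those called were the brightest Cd8a probe and the one with 10 spots. Both were kept for the test only through the AAV-hGRβ arrays, so the count is given as a description.

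Cd8b1, the β chain of CD8, had probes that disagreed. The chromosome 6 probe read -2.91, -2.67 and -1.79 with AAV-GFP and 0.62, -0.95 and 0.95 with AAV-hGRβ, without overlap and well above background on every array. Its difference was 2.66 (SE 0.54, adjusted p = 0.0829 over all probes). The chromosome 5 probe read 0.00, -0.55 and -1.12 with AAV-GFP and -0.28, -0.73 and -0.63 with AAV-hGRβ, fully overlapping, with a difference of 0.01 (adjusted p = 0.995). That probe had the higher mean and so stood for the gene in the count above. Its nearest probes on the array, at 2022 and 4115 bases, are named for Mlec, so whether it reports Cd8b1 is uncertain. With the chromosome 6 probe in its place, a choice made after the values were seen, Cd8b1 had an adjusted p of 0.0723 and the count of members called stayed at 4.

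**Figure D2:**
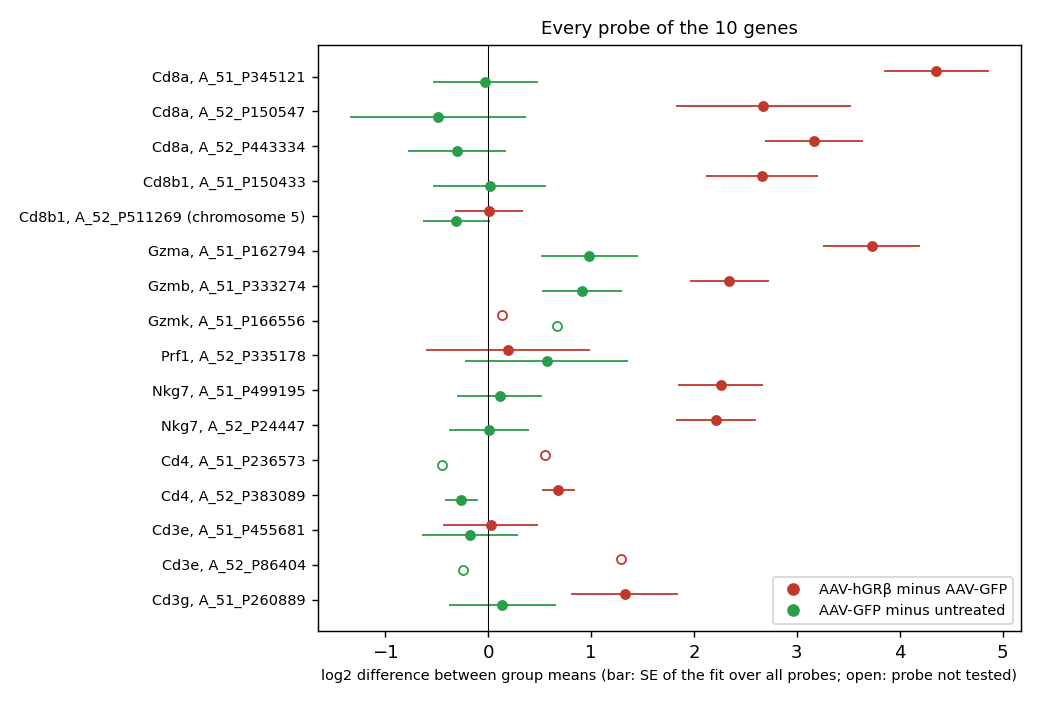
Log2 difference between group means for each of the 16 probes (x axis), for AAV-hGRβ minus AAV-GFP in red and AAV-GFP minus untreated in green, with bars for the standard error of the fit over all probes and open symbols for the 3 probes not tested. The 3 Cd8a probes, both Nkg7 probes and the chromosome 6 Cd8b1 probe lie between 2.22 and 4.36 in red, and the chromosome 5 probe named Cd8b1 lies at 0.01.

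Granzyme A and granzyme B are serine proteases of killer cell granules, and both were higher with AAV-hGRβ. Gzma read -3.28, -3.17 and -2.91 on AAV-GFP arrays 1, 2 and 3, and 0.72, -0.37 and 1.47 on AAV-hGRβ arrays 1, 2 and 3. The lowest AAV-hGRβ array was far above the highest AAV-GFP array, and the difference of 3.73 (SE 0.47) corresponds to 13.3-fold (adjusted p = 0.0105). Within the scan days it was 3.77 and 3.64. Without AAV-GFP 1 the adjusted p was 0.0644 and without AAV-hGRβ 1 it was 0.0621, with differences of 3.65 and 3.67. The difference was 1.81 after normexp and quantile normalization.

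Gzmb read -2.46, -2.81 and -2.23 with AAV-GFP and -0.52, -0.71 and 0.76 with AAV-hGRβ. The groups did not overlap, and the difference of 2.34 (SE 0.39) corresponds to 5.08-fold (adjusted p = 0.0312). It was 2.66 within the first scan day and 1.71 within the second. In 7 of the 9 fits without 1 array the call was lost, with adjusted p up to 0.132 and the difference between 1.89 and 2.62. The difference was 1.09 after normexp and quantile normalization (adjusted p = 0.0543).

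Nkg7 encodes a granule membrane protein of NK cells and cytotoxic T cells, and its 2 probes moved together. The brighter probe read -1.94, -1.39 and -1.05 with AAV-GFP and 0.84, -0.01 and 1.44 with AAV-hGRβ, a difference of 2.22 (SE 0.39) or 4.65-fold (adjusted p = 0.0404). The other read -3.27, -2.73 and -2.67 against -0.62, -1.47 and 0.20, a difference of 2.26 that did not pass (adjusted p = 0.0577 over all probes). Neither probe's groups overlapped. The call of the brighter probe was lost in 7 of the 9 fits without 1 array, with adjusted p up to 0.163 and differences from 1.88 to 2.60. Normexp and quantile normalization gave 1.40 (adjusted p = 0.029).

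Prf1 encodes perforin, the pore former that delivers granzymes. It read -4.73, -3.44 and -2.67 with AAV-GFP, where 2 of 3 arrays were well above background, and -2.11, -4.29 and -3.87 with AAV-hGRβ. The groups overlapped, and the difference was 0.19 (SE 0.80, adjusted p = 0.961). Its error was the widest of the 9 member genes tested. Gzmk, a granzyme of memory-like CD8 T cells, was well above background on 2 arrays of each group and so was not tested. It read -5.70, -3.25 and -3.40 with AAV-GFP and -3.09, -5.87 and -3.00 with AAV-hGRβ, with overlap and group means of -4.12 and -3.99.

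None of Cd4, the helper class marker, and the CD3 chains, shared by T cells, passed the test. Cd4, on its probe with 10 spots, read -3.19, -3.30 and -3.18 with AAV-GFP and -2.51, -2.46 and -2.65 with AAV-hGRβ. The arrays within a group lay close together and the groups did not overlap, yet the difference of 0.68 (SE 0.16) did not pass (adjusted p = 0.106). It was 0.69 and 0.67 within the scan days, 0.34 with arrays centred on the median and 0.12 after normexp and quantile normalization. The other Cd4 probe was well above background on 1 array of each group and was not tested.

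Cd3e, the ε chain, had nearly equal group means on its brighter probe. It read -0.70, -0.65 and -2.20 with AAV-GFP and -1.99, -0.63 and -0.86 with AAV-hGRβ. The low values were AAV-GFP 3 and AAV-hGRβ 1, which shared a slide, as did other pairs of arrays. Whether the slide played a part was not tested. The difference was 0.02 (SE 0.47, adjusted p = 0.992), and without AAV-GFP 3 it was -0.49 and without AAV-hGRβ 1 it was 0.44. The dimmer Cd3e probe was well above background on 0 AAV-GFP arrays and 1 AAV-hGRβ array and was not tested. Its measured difference was 1.29, with groups that overlapped. Cd3g, the γ chain, read -3.89, -3.94 and -2.96 with AAV-GFP and -1.84, -3.45 and -1.52 with AAV-hGRβ. Its difference of 1.33 (SE 0.52) did not pass (adjusted p = 0.356) and the groups overlapped at AAV-hGRβ 2. Over the 9 arrays Cd3g and the brighter Cd3e probe ran at a Pearson r of -0.46, so the CD3 chains did not move together.

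Cd8a, Gzma and Gzmb were set against Cd4 and Cd3e by taking the difference of the log2 levels within each array. These pairs were chosen with earlier results known, and Gzmk, Cd8b1 and Cd3g were not paired. Their own differences were 0.13, 0.01 (2.66 on the chromosome 6 probe) and 1.33, beside 0.68 for Cd4 and 0.02 for Cd3e. The difference of Gzma from Cd4 was -0.09, 0.13 and 0.27 on the AAV-GFP arrays and 3.24, 2.09 and 4.12 on the AAV-hGRβ arrays, a shift of 3.05. The shift of Gzma against Cd3e was 3.70, that of Gzmb against Cd4 was 1.66 and that of Gzmb against Cd3e was 2.32. The groups did not overlap for the Gzma pairs and for Gzmb against Cd4, and the two-sided exact permutation p was 0.1 for each, the smallest that 3 against 3 arrays allow (0.133 adjusted over the 4 pairs tested). For Gzmb against Cd3e the exact permutation p was 0.2 (0.2 adjusted), since AAV-GFP 3 at -0.02 lay above AAV-hGRβ 2 at -0.08. None of the 4 tested pairs passed, and none could with 3 against 3 arrays. The test therefore cannot decide whether the granzyme genes differed more than Cd4 and Cd3e.

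Cd8a against Cd4 and Cd3e was not tested, because its brightest probe was well above background on none of the AAV-GFP arrays. Measured differences shifted by 3.67 against Cd4 and 4.33 against Cd3e. With Cd8a held at its floor on the AAV-GFP arrays the shifts were 2.98 and 3.64. These correspond to bounds of 7.87-fold against Cd4 and 12.4-fold against Cd3e that hold only for this background correction. They were not tested, and the probe was kept only through the AAV-hGRβ arrays. The shift against Cd4 was 3.82 within the first scan day and 3.38 within the second. It was 0.94 after normexp and quantile normalization, and for Gzma against Cd4 that setting gave 1.69.

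**Figure D3:**
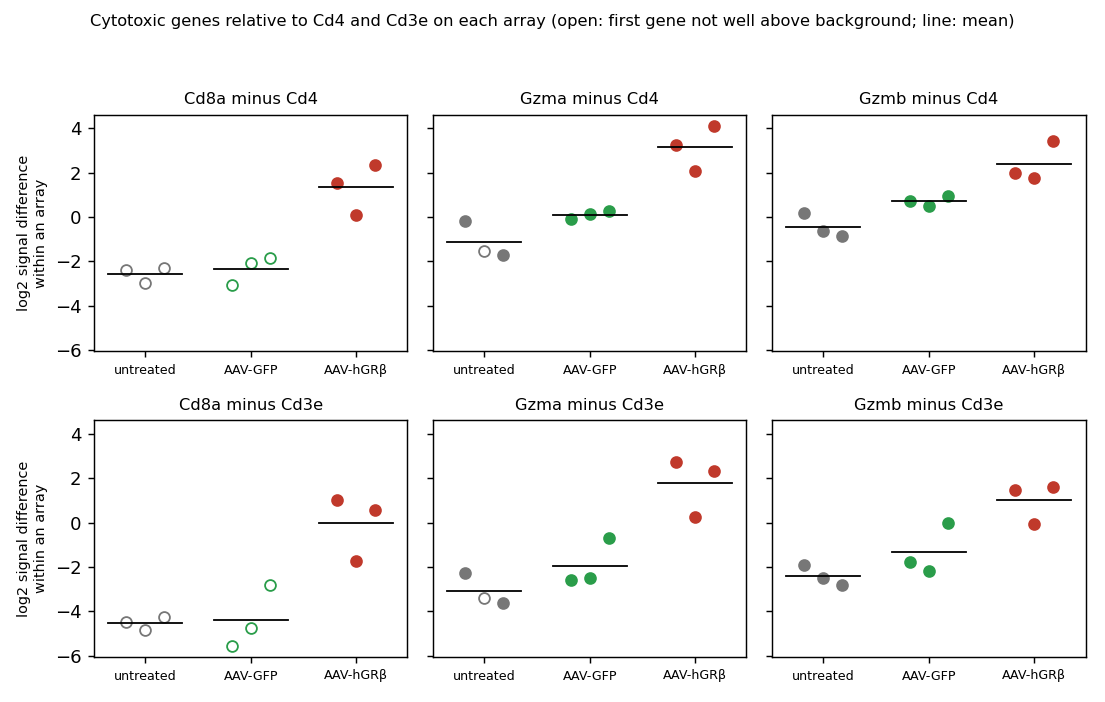
Log2 signal of Cd8a, Gzma and Gzmb minus that of Cd4 (upper row) or Cd3e (lower row) on each array (y axis), by group (x axis), with open circles where the first gene was not well above background and lines for group means. The AAV-hGRβ arrays lie above all AAV-GFP arrays in every panel except Gzmb minus Cd3e, where AAV-hGRβ 2 at -0.08 lies just under AAV-GFP 3 at -0.02.

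The virus with green fluorescent protein was then set against untreated liver. None of the 9 member genes was called, nor was any of the 16792 genes (0% called by limma, with 1659 genes at an unadjusted p under 0.05), and the median member difference was 0.01. Gzma read -3.33, -4.34 and -4.62 on untreated arrays 2, 3 and 4 (2 of them well above background), below all AAV-GFP arrays, with a difference of 0.98 (SE 0.47, adjusted p = 0.485). Gzmb read -3.00, -3.45 and -3.79 on the same arrays, also below all AAV-GFP arrays, with a difference of 0.91 (SE 0.39, adjusted p = 0.485). These were the 2 of 9 members whose AAV-GFP arrays lay wholly above, beside 5.76% of all genes. The brightest Cd8a probe read -5.56, -5.79 and -5.23 in untreated liver, not well above background in either group, so no fold is given. Of the other Cd8a probes, the one printed whole was well above background on untreated 2, at -4.15. Nkg7 differed by 0.01, Cd4 by -0.26, Cd3e by -0.18, Cd3g by 0.14 and Prf1 by 0.57, and the chromosome 6 Cd8b1 probe by 0.01.

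Against untreated liver, a contrast that shares the AAV-hGRβ arrays with the central one, Cd8a, Gzma, Gzmb and Nkg7 were called higher with AAV-hGRβ. They were 4 of 9 members tested, and 0 were lower. Of all genes, 3.29% were called, 2.53% higher and 0.762% lower, and the 553 genes behind that share ranged from 94 (without AAV-hGRβ 3) to 2143 (without untreated 2) when 1 array was left out. The arrays did not overlap for 5 of the 9, Cd4 being the other one, beside 14.8% of all genes. Gzma differed by 4.71 (SE 0.47, 26.2-fold, adjusted p = 0.0027), the largest fitted difference of any member in the 3 contrasts. Cd8a was at least 11.6-fold higher on its brightest probe (adjusted p = 0.00506), Gzmb 9.56-fold higher (adjusted p = 0.00536) and Nkg7 4.68-fold higher (adjusted p = 0.0254). The Cd8a probe with 10 spots was at least 4.84-fold higher (adjusted p = 0.0234 over all probes), and the probe printed whole overlapped and did not pass (adjusted p = 0.163). After normexp and quantile normalization the differences were 1.04 for Cd8a, 1.94 for Gzma, 1.31 for Gzmb and 1.35 for Nkg7. The Nkg7 call was lost in 4 of 9 fits without 1 array, with adjusted p of 0.108 without untreated 3, 0.109 without untreated 4, 0.0569 without AAV-hGRβ 1 and 0.0993 without AAV-hGRβ 3. It was also lost with no filter on dim probes (0.098), with a filter of 2 arrays (0.0541), with the slide as a random block (0.208) and with the replicate number as a block (0.387). The chromosome 6 Cd8b1 probe read -1.67, -2.91 and -2.83 in untreated liver and was 6.39-fold higher with AAV-hGRβ (adjusted p = 0.0444 over all probes), among 7 member probes called, beside 1.99% of all probes. The Cd8a probes were kept for the test only through the AAV-hGRβ arrays, so the counts of members and probes called are given as a description.

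The other members did not pass against untreated liver. Cd4 read -3.16, -2.81 and -2.92 in untreated liver, below all AAV-hGRβ arrays, with a difference of 0.42 (adjusted p = 0.146). Cd3g read -3.13, -3.89 and -4.18 with a difference of 1.46 (adjusted p = 0.136), and Prf1 read -3.89, -3.06 and -5.59 with a difference of 0.76 (adjusted p = 0.549). Cd3e read -1.08, -0.96 and -0.98, a narrow range inside that of the AAV-hGRβ arrays, and Gzmk read -4.76, -2.71 and -6.89. With slide as a random block, only Gzma of the 4 called genes passed (adjusted p = 0.0251), with Cd8a at 0.06, Gzmb at 0.0668 and Nkg7 at 0.208.

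The wider T cell and NK cell programme was followed through lists of other genes in the AAV-hGRβ against AAV-GFP contrast. Of 20 pan T cell genes, 17 were tested, with a median difference of 1.07, and 1 was called higher, beside 0.834% of all genes. That was Cd6, a surface receptor of T cells, which differed by 1.14 (SE 0.18, adjusted p = 0.0281). Lck, the kinase that CD4 and CD8 carry, had the next smallest p, with a difference of 1.62 (adjusted p = 0.0567). Cd3d, another CD3 chain, differed by 1.88 (adjusted p = 0.208).

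Of 22 NK cell receptor genes, 12 were tested, and all 12 differences were above 0 with a median of 1.31, yet 0 passed. The nearest were Klrd1, the CD94 chain of NK receptors, at 1.98 (adjusted p = 0.181), and Il2rb, a subunit of the IL-2 and IL-15 receptors, at 1.23 (adjusted p = 0.229). Among the 12, Klrk1, Klra8, Ncr1 and Cd226 were kept for the test only through the AAV-hGRβ arrays. That filter favours differences above 0, so the count above 0 and the median are given as a description. Of 15 helper and regulatory T cell genes 7 were tested, with a median of 0.53 and 0 called, and Gata3, the helper type 2 factor, came nearest at 1.14 (adjusted p = 0.243, at least 1.75-fold), followed by the costimulatory receptor Tnfrsf4 at 0.77 (adjusted p = 0.301). Of 19 other granule and killing genes 14 were tested, with a median of 0.34 and 0 called. Cathepsin W (Ctsw), a protease of CD8 T and NK cells, was nearest at 1.13 (adjusted p = 0.181), then Unc13d, which primes granules for release, at 0.77 (adjusted p = 0.326).

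Effector transcription factors and activation genes were tested in the same way, and none of the 20 tested passed. Ikzf3 (Aiolos), a lymphoid zinc finger factor, differed by 2.28 (at least 3.72-fold, adjusted p = 0.0677) and Batf, an AP-1 family factor of effector T cells, by 1.34 (adjusted p = 0.2). Pdcd1, the checkpoint receptor PD-1, differed by 3.25 with a wide error (SE 1.02, adjusted p = 0.242), and Entpd1, an ATP-degrading surface enzyme, by 0.70 (adjusted p = 0.327). The medians were 0.34 over 8 factors and 0.51 over 12 activation genes.

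Of 17 homing genes, 4 were called higher and 0 lower, with a median of 1.23, beside 0.834% of all genes called higher and a median of 0.027. Ccl4, a chemokine that activated CD8 T cells and NK cells themselves secrete, read -3.48, -3.11 and -2.86 with AAV-GFP and 0.14, -0.73 and 0.78 with AAV-hGRβ, a difference of 3.21 (adjusted p = 0.0121). Ccl5, a chemokine that draws T cells, differed by 2.97 (adjusted p = 0.0295). The CXCR3 ligands Cxcl9 and Cxcl10, which recruit effector T cells, differed by 1.78 (adjusted p = 0.022) and 1.89 (adjusted p = 0.0292).

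**Figure D4:**
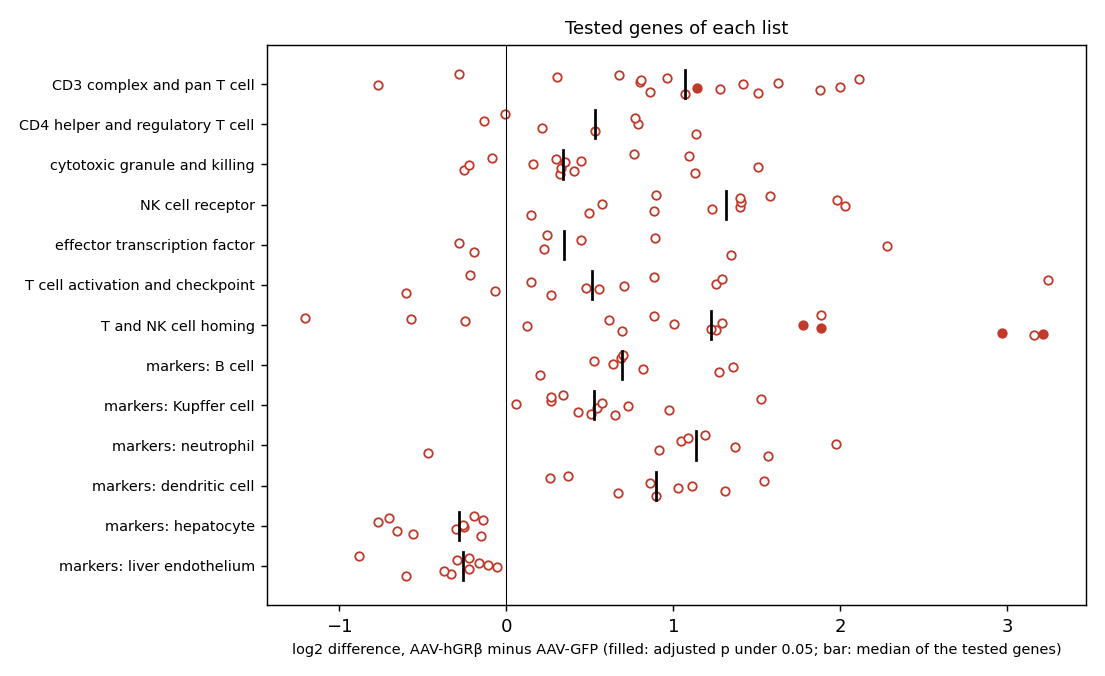
Log2 difference of AAV-hGRβ minus AAV-GFP (x axis) for every tested gene of each list (y axis), filled where the adjusted p was under 0.05, with a bar at the median of the list's tested genes. The NK cell receptor genes all lie above 0 with none filled, 4 homing genes and 1 pan T cell gene are filled, and all hepatocyte and endothelial markers lie below 0. Some of the NK cell receptor genes were kept for the test only through the AAV-hGRβ arrays.

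Against untreated liver, where 2.53% of all genes were called higher and 0.762% lower, the genes called higher were 4 of 17 pan T cell genes, 2 of 14 granule genes, 2 of 8 factors, 1 of 12 activation genes and 5 of 17 homing genes. Of the 17 pan T cell genes 1 was called lower, as was 1 of the 12 activation genes. Of the 12 NK receptors and the 7 helper genes, 0 were called. The pan T cell genes called higher were Cd6, Lck, Cd7 and Cd2. Lck differed by 1.65 (adjusted p = 0.0327) and Cd7, an immunoglobulin family surface marker, by 2.22 (adjusted p = 0.0358). The death ligand gene Tnfsf10 (TRAIL), by 1.89, and the granzyme B inhibitor gene Serpinb9, by 1.05, were the granule and killing genes. The factors were Batf, by 1.86, and Ikzf3, at least 3.41-fold. The activation genes were Cd69, an early activation marker, at least 1.71-fold higher, and Tox, a factor of chronically stimulated T cells, lower by a difference of -1.19. The homing genes were Ccl4, Ccl5, Cxcl9, Cxcl10 and the chemokine gene Ccl3, which read -4.54, -6.02 and -7.11 in untreated liver. Ccl3 was well above background on 1 of the 3 untreated arrays, so no size is given. Ikzf3, Cd69 and Ccl3 were kept for the test only through the AAV-hGRβ arrays, where they are high, so their calls are given as a description. Some of the named genes already differed in the same direction between AAV-GFP and untreated liver, where none was called. Tox differed there by -0.97, Ccl4 by 0.89, Tnfsf10 by 0.80 and Serpinb9 by 0.70. Cxcl10 differed by 0.19, Lck by 0.03, Ccl5 by -0.03, Cxcl9 by -0.14 and Cd6 by -0.28. Cd69, Ikzf3 and Ccl3 also read higher with AAV-GFP but were dim in untreated liver, so no size is given.

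Markers of other cell types also stood at other levels with AAV-hGRβ, and their part in the results was not tested. The tested markers of B cells (8 of 11), Kupffer cells (12 of 12), neutrophils (8 of 11) and dendritic cells (9 of 10) had median differences of 0.69, 0.53, 1.14 and 0.90 between AAV-hGRβ and AAV-GFP, and 0 passed. Those of hepatocytes (10 of 12) and liver endothelium (10 of 10) had medians of -0.28 and -0.26, and 0 passed. Summed signal, in units of the 75th percentile, ran from 2.89 to 4.59 for B cell markers with AAV-hGRβ and from 1.49 to 2.99 with AAV-GFP, and for dendritic cell markers from 3.07 to 4.83 and from 1.51 to 2.78. For Kupffer cell markers it ran from 297 to 478 and from 142 to 309, and for neutrophil markers from 9.65 to 18.8 and from 3.79 to 10.3. For hepatocyte markers the ranges were 2415 to 2947 and 2906 to 3868, and for endothelial markers 28.1 to 35.02 and 31.6 to 51.3. By smallest p these lists were led by Cd22 at 1.28 and Mzb1 at 0.70 for B cells, Cd5l at 0.97 and Clec4f at 0.73 for Kupffer cells, and Mpo at 1.37 and S100a9 at 1.19 for neutrophils. They were followed by Cd83 at 1.31 and Batf3 at 0.90 for dendritic cells, G6pc at -0.77 and Apoa1 at -0.56 for hepatocytes, and Tek at -0.88 and Clec4g at -0.60 for endothelium, and of these 12 genes Cd22 had the smallest adjusted p, 0.0782. Against untreated liver the Kupffer cell genes Clec4f, by 1.17, and Cd5l, by 1.26, were called higher (adjusted p = 0.0358 and 0.0429), as were Cd22, by 1.39, and Cd83, by 2.22.

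The genes whose levels ran most like Cd8a over the 9 arrays were Sct (Pearson r 0.988), Egr2 (0.987), Gbp9 (0.986), Cbr3 (0.986) and Ly6d (0.984). For Gzma they were Ccl4 (0.997), Ddias (0.993), Phlda3 (0.992) and Uhrf1 (0.991), and an unnamed array transcript (0.988). Among the members themselves, Cd8a ran with Nkg7 at 0.981, Gzma at 0.958 and Gzmb at 0.926, with Cd3g at 0.849 and Cd4 at 0.799, and with Prf1 at 0.291 and Cd3e at -0.182. These coefficients rest on 9 arrays in 3 groups, so any pair of genes that differ between the groups scores high, and they are given as a description.

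The promoters of the granule genes are shown because Gzma, Gzmb and Nkg7 were called together while Prf1 was not. RefSeq promoter sequences (build GRCm38.p6) were matched for 8 of the 10 genes, without Cd8b1 and Cd4. The 250 bases before the start of the gene are written 5′ to 3′ on the gene's strand, at chr13:113100982-113101231 (minus) for Gzma, chr14:56262335-56262584 (minus) for Gzmb, chr7:43436888-43437137 (plus) for Nkg7 and chr10:61297586-61297835 (plus) for Prf1. Capitals mark matches, on either strand, to TGTGGT (RUNX), GGTGTGA (T-box), GAAA and again GAAA after any 2 bases (ISRE, the interferon response element), TTCNNNGAA (GAS, the STAT site) and TGANTCA (AP-1). None of the marked matches overlaps another.
Gzma: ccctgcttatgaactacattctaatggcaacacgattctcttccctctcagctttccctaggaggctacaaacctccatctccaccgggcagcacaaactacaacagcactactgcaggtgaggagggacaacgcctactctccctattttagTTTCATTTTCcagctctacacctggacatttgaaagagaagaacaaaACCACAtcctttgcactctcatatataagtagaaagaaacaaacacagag
Gzmb: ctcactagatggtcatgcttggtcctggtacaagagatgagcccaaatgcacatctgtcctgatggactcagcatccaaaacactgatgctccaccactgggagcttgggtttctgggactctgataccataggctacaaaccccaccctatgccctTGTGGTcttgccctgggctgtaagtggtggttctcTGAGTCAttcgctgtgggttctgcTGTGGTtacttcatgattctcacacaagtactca
Nkg7: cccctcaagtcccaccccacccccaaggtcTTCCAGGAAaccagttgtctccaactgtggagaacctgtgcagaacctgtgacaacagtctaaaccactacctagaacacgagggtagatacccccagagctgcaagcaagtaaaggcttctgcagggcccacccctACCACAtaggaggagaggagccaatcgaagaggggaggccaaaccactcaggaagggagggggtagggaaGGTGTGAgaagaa
Prf1: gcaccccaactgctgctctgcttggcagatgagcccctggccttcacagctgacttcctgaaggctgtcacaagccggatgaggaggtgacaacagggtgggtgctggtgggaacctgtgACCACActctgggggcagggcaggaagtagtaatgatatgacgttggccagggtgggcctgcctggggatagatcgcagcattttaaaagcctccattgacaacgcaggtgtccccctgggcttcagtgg

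The RUNX letters stood in these 4 promoters and in none of the other 4 matched ones, beside 14.0% of 32851 promoters of the same length. They were counted in Prf1 as in Gzma, Gzmb and Nkg7, so the letters did not separate the called genes from Prf1. Gzmb held them at 2 places, from bases -93 and -34, with the AP-1 letters between them (6.75% of all promoters). Gzma held them from base -50 and the ISRE letters from base -97 (2.98% of all promoters). Nkg7 held the T-box letters from base -13 (3.33% of all promoters, also in Gzmk) and the GAS letters from base -220 (7.02%). A match describes the letters in this window, and no binding was measured.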

How the data were processed

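RNA of 9 liver samples was labelled with Cy3 from 500 ng and hybridised to Agilent mouse arrays, per the labels' protocols. Spot intensity in the deposited array files is linear, after the scanner software had subtracted background and a spatial trend from each array, per the file headers, and was not scaled between arrays. Per the submitters' processing notes, version 9.5 of Agilent Feature Extraction was used. The deposited series table held the same intensity values. Log2 intensity minus the array's 75th percentile was computed here, without control spots and outlier spots, with spots of a probe averaged. A probe was kept where every array of some group flagged it well above background (24272 probes, among them 13 of the 16 member probes and 9 of the 10 member genes), and a gene with several kept probes was read from the one of highest mean. Symbols came from a RefSeq table (GRCm38.p6): accessions named 23075 probes, symbols 6587 and older symbols 3072, while 8440 kept the file's name.

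Groups came from the labels. limma 3.58.1 (R 4.3.3) was fitted over all 9 arrays and 16792 genes with group as the only term, two-sided, with Benjamini-Hochberg adjustment at 0.05. The script was tested on simulated data. Levels were compared within a probe, and pairs of genes by exact permutation tests. All 10 members were named, with up to 4 called genes from each list or otherwise the 2 with the smallest p, and the 5 genes most like Cd8a and Gzma. Cd3d and the genes called against untreated liver were named after their values were seen, and 1 gene of the lists is not reported here. The members and lists were chosen with earlier results of these data known. The number of arrays limits the precision. Same-numbered arrays of AAV-hGRβ and AAV-GFP had correlated deviations of 0.012, 0.242 and 0.006, so the numbers were not treated as pairs. Alternatives were median and quantile scaling, normexp with offset 50, other filters on dim probes, the mean of a gene's probes, a test for each probe, scan day and slide as blocks, 6 arrays in place of 9, the replicate block and leaving out each array.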

Additional observations from a re-analysis of the deposited data

How the results depend on the processing

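The arrays limit what can be said of dim members: the brightest Cd8a probe has only a bound in untreated and AAV-GFP liver, Gzmk was measured on 2 of 3 arrays of each group, and Prf1 had a standard error of 0.80. Of 184 values of the called members (Cd8a, Gzma, Gzmb, Nkg7) under alternatives, 44 lost the call and 0 changed sign. The other 140 kept the call or, as differences within a scan day, had no test. The filters, the scan day block and the fit to 6 arrays leave the difference as it is and could not change its sign. The same holds for the replicate block in AAV-hGRβ against AAV-GFP. Groups of these genes did not overlap, so leaving out 1 array could not change the sign either. For most of the 184 values the unchanged sign was therefore fixed in advance and shows nothing further. Leaving out 1 array moved genes called from 41 (without AAV-GFP 1) to 162 (without untreated 2) for AAV-hGRβ against AAV-GFP, from 0 to 1 for AAV-GFP against untreated, and from 94 (without AAV-hGRβ 3) to 2143 (without untreated 2) for AAV-hGRβ against untreated, with members called from 1 to 4, 0 in all 9, and from 3 to 4. Where another setting changed a value below, the cause was not tested.

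Genes called for AAV-hGRβ against AAV-GFP, 153 as reported, were 95 with arrays centred on the median, 30 with no filter, 67 with a filter of 2 arrays, 259 with scan day as a block, 75 with slide as a random block, 77 with 6 arrays and 2 with the replicate block. Members called, 4 as reported, were 1 with no filter, 2 each with the filter of 2 arrays, slide and 6 arrays, and 0 with the replicate block. For AAV-GFP against untreated, genes called were 4 with median centring, 1 with quantile normalization and 1 with scan day. For AAV-hGRβ against untreated, 553 as reported, they were 1216 with normexp, 1126 with bright backgrounds replaced, 85 with no filter, 194 with the filter of 2 arrays, 1249 with scan day, 58 with slide, 306 with 6 arrays and 0 with the replicate block, and members called were 1 with slide and 0 with the replicate block. The replicate block is no paired test here, since the numbers do not pair the samples. Median centring shifted the median difference of all genes by -0.344 for AAV-hGRβ against AAV-GFP and -0.340 against untreated, and quantile normalization by -0.126 against untreated.

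Cd8a minus Cd4, 3.67 as reported, was 0.94 with normexp, 1.55 with bright backgrounds replaced and 2.72 with the mean of the probes of a gene, and Cd8a minus Cd3e, 4.33, was 1.08 and 1.79. Without 1 array Cd8a minus Cd4 ran from 3.16 to 4.29, Cd8a minus Cd3e from 3.73 to 5.17, Gzma minus Cd4 from 2.56 to 3.58, Gzma minus Cd3e from 3.23 to 4.46, Gzmb minus Cd4 from 1.15 to 1.98 and Gzmb minus Cd3e from 1.90 to 2.97.

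Small differences changed sign. For AAV-hGRβ against AAV-GFP, Cd8b1 (chromosome 5 probe), Cd3e and Prf1 were -0.33, -0.32 and -0.15 with median centring, -0.025, -0.060 and -0.14 with quantile normalization, -0.0077, -0.031 and -0.076 with normexp, and -0.0051, -0.045 and -0.13 with bright backgrounds replaced, and on the first scan day Cd8b1 was -0.40 and Cd3e -0.070. Leaving out 1 array moved Cd8b1 from -0.27 to 0.29, Cd3e from -0.49 to 0.44 and Prf1 from -0.47 to 0.67. For AAV-GFP against untreated, Nkg7 was -0.043 with normexp, -0.034 with bright backgrounds replaced and -0.016 on the second scan day, Cd8a was 0.034 with slide, 0.48 with the replicate block and 0.55 on the second day, Cd3e was 0.29 on the first, and Cd8b1 was 0.014 on its chromosome 6 probe. Leaving out 1 array moved Nkg7 from -0.20 to 0.25, Cd8a from -0.30 to 0.33, Cd3e from -0.45 to 0.33, Cd3g from -0.18 to 0.44 and Prf1 from -0.14 to 1.13. For AAV-hGRβ against untreated, Cd8b1 was 1.19 with the mean of its probes, 2.68 (adjusted p = 0.0400) on its chromosome 6 probe and 0.50 on the second day, Cd3e was 0.27 with the replicate block and 0.22 on the first day, and Prf1 was -0.60 with the replicate block, while leaving out 1 array moved Cd3e from -0.42 to 0.26.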
